A study of Mus musculus with 192 samples.

Results

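The multidrug efflux transporters of the Abcc family were followed as 7 genes, Abcc1, Abcc2, Abcc3, Abcc4, Abcc5, Abcc6 and Abcc10, out of 54752 genes in the expression table. They were chosen by symbol, with earlier results of these data known, and each symbol matched 1 gene. RNA had been sequenced from 9 tissues of male C57BL/6 mice (C57BL/6J by the study's text), labelled as 12 weeks of age. Liver (Liv) and kidney (Kid) were the organs of drug elimination among them, thymus (Thy) and spleen (Spl) the lymphoid organs, and cerebrum (Cbr) the brain sample. Fat came from a white depot, the epididymal fat (eWAT), and a brown depot between the shoulder blades (iBAT), and bone from the mandible (MdB) and the temporal bone (TpB). GC_WT and GC_KO were wild-type and Nrf2KO mice kept in the same cage units on the ground, and FL_WT and FL_KO were wild-type and Nrf2KO mice that lived on the International Space Station. The Nrf2KO mice carry a germline disruption of Nfe2l2 in every cell, and Nrf2KO mice with an intrahepatic vascular shunt, which some animals of this line develop, had been screened out. The screen dosed Nrf2KO mice with ketamine and xylazine and kept those that slept long. The study's text describes no such dosing of WT mice, so dosing and selection cannot be told apart from genotype. Flown mice were dissected after landing and behavioral tests in the USA, and the ground experiment ran months later in Japan, so flight, return, site and date cannot be told apart. The study's text gives 12 weeks as the age of mice ready for transport to the station, so flown mice were weeks older at dissection. Flight mouse 04, an Nrf2KO animal with intestinal hemorrhage, was left out, which removed 8 of 192 samples. Each group had 6 mice in 7 tissues, with 5 in FL_KO, and 3 mice in MdB and Kid, with 2 of FL_KO in MdB.

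The Abcc proteins compared here use ATP to pump organic anions out of cells, many of them conjugated to glutathione, glucuronate or sulfate. Their place in the cell decides the route. In hepatocytes, Abcc2 (Mrp2) sits in the canalicular membrane and moves bilirubin glucuronides and glutathione conjugates into bile, whereas Abcc3 (Mrp3) and Abcc4 (Mrp4) sit in the basolateral membrane and move conjugates into blood. In the proximal tubule of the kidney, Abcc2 and Abcc4 face the urine. Abcc1 (Mrp1) is a widely expressed exporter of glutathione conjugates and leukotriene C4, Abcc5 (Mrp5) exports cyclic nucleotides, Abcc10 (Mrp7) exports lipophilic conjugates, and Abcc6 is needed for the release of ATP from hepatocytes. Nrf2 is a transcription factor that binds antioxidant response elements and drives genes of glutathione synthesis, conjugation and efflux.

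Total expected counts per sample ranged from 13.1 M to 16.3 M outside Thy and from 8.01 M to 10.6 M in Thy. Thy libraries were made from total RNA depleted of rRNA, and libraries of the other tissues from poly(A) RNA. Nfe2l2, the disrupted gene, was lower in Nrf2KO than in WT mice without overlap in each of the 9 tissues, with the mean of the Nrf2KO mice between 28.2% (Cbr) and 81.9% (Spl) of the WT mean. Summed markers of hepatocytes, proximal tubule, adipocytes, brown adipocytes, neurons, T cells and B cells were highest in Liv, Kid, eWAT, iBAT, Cbr, Thy and Spl, respectively. Markers of osteoblasts and osteocytes summed to 57299 TPM (transcripts scaled by length to a fixed total per sample) in MdB of GC_WT mice but to 1708 TPM in TpB. The table does not separate fewer cells of a type from less RNA per cell in any of these tissues.

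The 7 genes fell into a pair confined largely to Liv and Kid, a gene of Liv and Spl, and genes found in most tissues. In GC_WT mice, Abcc2 was at 129 ± 8.31 TPM in Liv (SD, n = 6) and at 64.2 ± 5.27 TPM in Kid (SD, n = 3). The means of the other 7 tissues lay between 0.0217 TPM in Thy and 0.438 TPM in TpB, and their neighbours in this order overlapped. Abcc6 was at 42.6 ± 4.33 TPM in Liv and 3.67 ± 0.166 TPM in Kid, and its other tissue means lay between 0.005 TPM in iBAT and 0.325 TPM in Cbr. Low values here rest on few reads, as with Abcc2 in Thy, where the GC_WT mice had 0 to 4 expected counts.

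Abcc3 was also highest in Liv but was not a kidney gene in these mice. Its mean in GC_WT mice was 97.3 ± 10.4 TPM in Liv, 33 ± 7.13 TPM in Spl, 9.43 ± 1.45 TPM in eWAT and 4.34 ± 0.744 TPM in Thy, and no 2 of these neighbouring tissues overlapped. It was at 1.97 ± 0.726 TPM in MdB and 1.78 ± 0.339 TPM in TpB, which overlapped, at 0.95 ± 0.124 TPM in Cbr, and at 0.453 ± 0.114 TPM in Kid and 0.145 ± 0.127 TPM in iBAT, which overlapped.

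Liv held the lowest mean of Abcc1, Abcc4 and Abcc5. Abcc1 was at 22.9 ± 2.17 TPM in eWAT, 18.5 ± 0.893 TPM in Spl, 15.8 ± 0.498 TPM in MdB and 11.5 ± 2.83 TPM in TpB of GC_WT mice, each without overlap with the next. It was at 6.65 ± 0.861 TPM in Cbr, 4.37 ± 0.921 TPM in iBAT, 3.48 ± 0.534 TPM in Thy and 2.59 ± 0.251 TPM in Kid, where neighbours overlapped. The 6 livers had 0.24 to 0.31 TPM. Abcc4 differed less among tissues. Its means were 13 ± 2.13 TPM in TpB, 11.3 ± 0.876 TPM in Kid and 11.2 ± 0.72 TPM in Spl, which overlapped as neighbours, and 7.28 ± 0.854 TPM in MdB. They were 5.99 ± 0.791 TPM in eWAT, 5.7 ± 0.709 TPM in Cbr, 5.45 ± 0.727 TPM in iBAT and 4.38 ± 0.369 TPM in Thy, again overlapping as neighbours. Liv stood below them at 1.17 ± 0.362 TPM.

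By mean TPM, Abcc5 was the leading member of the family in 7 of the 9 tissues and Abcc2 in Liv and Kid. In iBAT Abcc5 (3.05 to 8.69 TPM) overlapped with Abcc10 (5.1 to 6.78 TPM), Abcc4 (4.14 to 6.17 TPM) and Abcc1 (3.44 to 5.95 TPM). In Spl Abcc5 (35.6 to 46.4 TPM) overlapped with Abcc3 (25.9 to 45.5 TPM). The share of Abcc5 in the summed TPM of the 7 genes ran from 27.3% in iBAT to 82.4% in Cbr. Its mean in GC_WT mice was 84.9 ± 7.53 TPM in Cbr, 61.9 ± 7.82 TPM in Thy, 58.1 ± 17.3 TPM in TpB, 47.9 ± 3.82 TPM in MdB and 40.8 ± 4.56 TPM in Spl. From Thy to Spl, neighbours overlapped. It was at 27.7 ± 2.05 TPM in eWAT, 13.6 ± 1.11 TPM in Kid, 5.93 ± 2.31 TPM in iBAT and 2.11 ± 0.817 TPM in Liv, and the last pair overlapped. The order of Cbr and Thy turned with the scale. With mitochondrial, ribosomal protein and small RNA genes taken out of the TPM total, Abcc5 was at 170 TPM in Thy and 104 TPM in Cbr.

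Abcc10 was the most even member, from 8.87 ± 0.663 TPM in Spl to 2.16 ± 0.253 TPM in Thy. Between them stood MdB (8.17 ± 1.21 TPM), Kid (7.79 ± 0.548 TPM), TpB (6.32 ± 1.51 TPM), iBAT (5.78 ± 0.65 TPM), eWAT (4.83 ± 0.564 TPM), Liv (4.67 ± 0.504 TPM) and Cbr (4.42 ± 0.566 TPM), each overlapping with the next. Exons of Abcc10 overlap those of Dlk2 on the opposite strand. Group means of Dlk2 were 21.2 to 24.7 TPM in Cbr, where every sample used held 19.3 to 29 TPM. They were 2.8 to 4.54 TPM in TpB and MdB and at most 1.03 TPM in the other tissues. The setting of strand in counting is not given in the sources used here, so some reads of Abcc10 could be those of Dlk2. When CPM, which is not scaled by length, with TMM factors over all tissues replaced TPM, 4 of 7 genes kept their highest tissue. Abcc4 was then highest in Kid, Abcc5 in Thy and Abcc10 in iBAT.

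**Figure D1:**
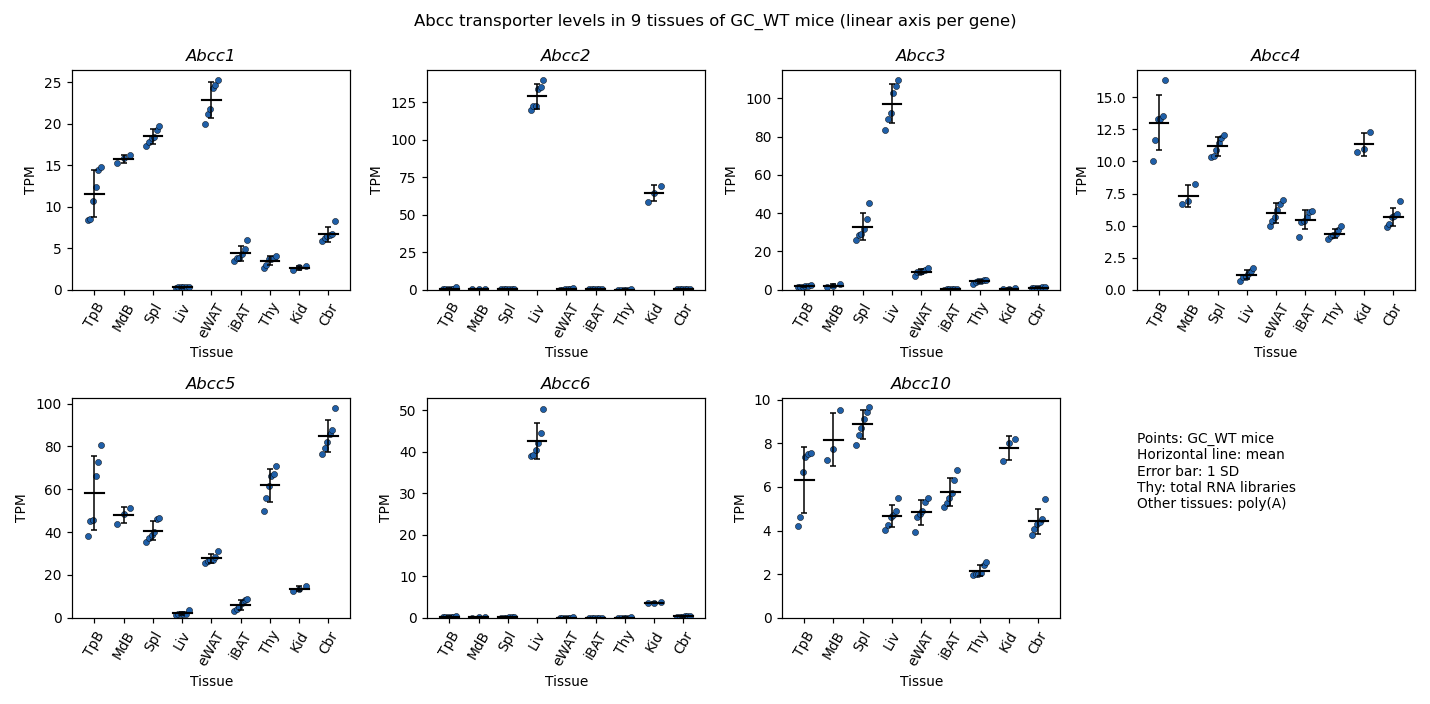
Levels of the 7 Abcc genes in GC_WT mice. Each panel is 1 gene with its own linear axis in TPM, points are mice, lines are means and error bars are 1 SD (n = 6, or 3 in MdB and Kid). Abcc2 stands at 129 TPM in Liv and 64.2 TPM in Kid and near 0 elsewhere, whereas Abcc5 is highest in Cbr and lowest in Liv.

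Genes whose pattern over the 36 means of tissue and group was most like that of a member were listed as a description. Over log2(mean TPM + 1), Abcc2 was closest to BC025446 (Pearson r = 0.999), Prodh2 (0.998) and F13b (0.998), and Abcc6 to Nr1i2 (0.995), Gm11789 (0.993) and Pdilt (0.993). These points share libraries, and for both genes Liv and Kid stand apart from the other points. Abcc1 was closest to Kctd10 (0.966), Pdrg1 (0.956) and Klf6 (0.950), and Abcc5 to Exoc4 (0.972), Spindoc (0.970) and E130307A14Rik (0.967). For Abcc3 they were Pnpla7 (0.923), C6 (0.918) and Hpgd (0.904). For Abcc4 they were Fut8 (0.898), Hscb (0.897) and Tamm41 (0.896), and for Abcc10 Tha1 (0.938), Scpep1 (0.889) and Igfbp3 (0.886).

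The first question was what the loss of Nrf2 changed in the family on the ground. In GC_KO mice Abcc3 was far below GC_WT in Liv, Abcc4 was lower in Liv, Kid and eWAT, and Abcc2 was lower in Kid but not called in Liv. No member passed the test as higher in any tissue, although 22 of 55 pairs lay above 0. A gene was called where the edgeR quasi-likelihood test gave an adjusted p under 0.05, with the Benjamini-Hochberg method over all genes tested in the tissue. Of 63 pairs of gene and tissue, 55 had enough counts to be tested, which left out Abcc2 in Spl, Thy and Cbr and Abcc6 in MdB, Spl, eWAT, iBAT and Thy. The count was 5 of 55 pairs called, all 5 lower (9.09%), whereas 1.65% of all gene and tissue tests of this comparison were called. The median log2 fold change was -0.03 over the 55 pairs and 0.00 over all genes.

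Abcc3 in Liv carried the largest difference. The 6 GC_WT livers held 83.4 to 110 TPM with a median of 97.67 TPM, and the 6 GC_KO livers held 9.27 to 19 TPM with a median of 14.66 TPM. The groups were far apart, and the GC_KO mean was 15.3% of the GC_WT mean, a log2 fold change of -2.72 ± 0.184 (SE, edgeR adjusted p = 5.1e-10). In Liv 2.64% of all genes tested were called in this comparison. None of 4 hepatocyte markers was called there, and their sums ran from 59554 to 73961 TPM in GC_KO and from 60330 to 78729 TPM in GC_WT livers.

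In flight the same gene stood apart again. The 6 FL_WT livers held 104 to 134 TPM with a median of 128.6 TPM, and the FL_KO livers held 22, 27.9, 30.2, 38.9 and 43 TPM. All FL_KO livers were below all FL_WT livers and above all GC_KO livers. The log2 fold change from FL_WT to FL_KO was -2.01 ± 0.191 (SE, edgeR adjusted p = 1.68e-07), and 3.65% of all Liv genes were called. Of 4 erythroid markers tested, 2 were higher in FL_KO than in FL_WT livers (sums over the list of 320 to 792 TPM against 228 to 385 TPM) and 0 of 4 hepatocyte markers were called. The part of these cells in the difference was not tested.

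Outside Liv, Abcc3 did not pass the test between genotypes in any tissue, also not in Spl, where it was next highest. There GC_KO mice had 27.9 ± 4.26 TPM and GC_WT mice 33 ± 7.13 TPM (SD, n = 6 each), with a log2 fold change of -0.24. Whether the genotype difference itself differed between tissues was tested in fits of tissue pairs, added after the values had been seen and with samples of the same mouse taken as independent. The genotype difference of Abcc3 in Liv minus that in eWAT was -2.81 on the log2 scale on the ground (adjusted p = 3.97e-13, 1.04% of genes called) and -1.96 in flight (adjusted p = 4.25e-08, 1.54% called). Liv minus Kid gave -2.58 on the ground (adjusted p = 0.000674, 0.44% called) and -2.21 in flight (adjusted p = 0.00258, 0.478% called), with 16 to 33 expected counts of Abcc3 in the Kid samples.

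Abcc4, the other basolateral exporter of hepatocytes, fell in 3 tissues on the ground. In Kid, where it was well expressed, GC_WT mice held 10.7, 10.9 and 12.3 TPM and GC_KO mice 4.99, 6.03 and 6.08 TPM. The groups did not overlap, and the log2 fold change was -1.01 ± 0.149 (SE, edgeR adjusted p = 0.00243). In flight, FL_WT kidneys held 11.3, 12.9 and 17.8 TPM and FL_KO kidneys 6.51, 6.86 and 9.16 TPM, again without overlap, at a log2 fold change of -0.92 ± 0.146 (SE, edgeR adjusted p = 0.0041).

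In Liv the level of Abcc4 was low. GC_WT livers held 0.69 to 1.71 TPM with a median of 1.11 TPM, and GC_KO livers held 0.29 to 0.77 TPM with a median of 0.475 TPM. The ranges overlapped, and these samples had 16 to 90 expected counts. On the log2 scale Abcc4 fell by 1.34 ± 0.228 (SE, edgeR adjusted p = 0.000664). In flight, FL_WT livers held 0.65 to 1.07 TPM with a median of 0.875 TPM and FL_KO livers 0.35, 0.41, 0.58, 0.64 and 0.64 TPM, just below the lowest FL_WT liver. The log2 fold change of -0.81 was not called there (edgeR adjusted p = 0.0636), but it was called with DESeq2 (-0.82, adjusted p = 0.0315).

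In eWAT the difference of Abcc4 was smaller. GC_WT mice held 4.93 to 6.97 TPM (median 5.965 TPM) and GC_KO mice 3.75 to 5.35 TPM (median 4.655 TPM), which overlapped. The log2 fold change was -0.47 on the ground (edgeR adjusted p = 0.029) and -0.51 in flight, where FL_WT mice held 4.86 to 7.51 TPM (median 6.37 TPM) and FL_KO mice 3.27, 4.04, 4.44, 4.96 and 5.25 TPM. The edgeR adjusted p in flight was 0.0428 (SE 0.123). The in-flight call was lost without FL_KO replicate 1 (adjusted p = 0.0797), 11 (adjusted p = 0.126) or 12 (adjusted p = 0.122), and also without the filter on low counts (adjusted p = 0.0729) or with the compared groups alone (adjusted p = 0.132). Both calls were lost on the log2(TPM + 1) scale with limma (adjusted p = 0.127 on the ground and 0.122 in flight) and with flight mouse 04 included (adjusted p = 0.0627 and 0.23). Of 4 adipocyte markers 1 was lower in GC_KO mice, with sums of 23241 to 31778 TPM against 28920 to 36752 TPM in GC_WT mice, and their part in the result was not tested. Of all eWAT genes, 2.74% were called on the ground and 1.06% in flight. In iBAT, which was not called, Abcc4 had log2 fold changes of -0.35 on the ground and -0.40 in flight.

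Abcc2 showed its genotype difference in Kid. GC_WT kidneys held 58.7, 64.7 and 69.2 TPM and GC_KO kidneys 37.9, 44.2 and 45.4 TPM. All 3 GC_KO kidneys were below all 3 GC_WT kidneys, and the log2 fold change was -0.70 ± 0.0918 (SE, edgeR adjusted p = 0.00103). In flight, FL_WT kidneys held 68.6, 74.6 and 80 TPM and FL_KO kidneys 45.5, 46.5 and 48.2 TPM, also apart, at a log2 fold change of -0.72 ± 0.0917 (SE, edgeR adjusted p = 0.000676). In Kid 1.61% of all genes were called on the ground and 1.83% in flight. None of 4 proximal tubule markers was called between genotypes in Kid, with sums of 65158 to 88809 TPM in GC_KO and 66241 to 71103 TPM in GC_WT, and of 52638 to 60109 TPM in FL_KO and 54331 to 57765 TPM in FL_WT mice.

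In Liv, its main site, Abcc2 ran from 120 to 140 TPM in GC_WT (median 128.2 TPM) and from 92.3 to 146 TPM in GC_KO mice (median 125.4 TPM). The ranges overlapped, and the log2 fold change of -0.12 had a 95% interval of -0.38 to 0.15 (edgeR adjusted p = 0.797). In flight it was -0.17, with a 95% interval of -0.44 to 0.11. The difference between Liv and Kid in the genotype effect on Abcc2 was 0.59 ± 0.206 on the ground and 0.56 ± 0.209 in flight (SE), and was not called (edgeR adjusted p = 0.422 and 0.336).

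Abcc1, Abcc5, Abcc6 and Abcc10 had no call between genotypes in any tissue where they were tested. In flight the family had 4 of 55 pairs called between genotypes, all lower in FL_KO (7.27%, against 1.35% of all tests). These 4 pairs were among the 5 called on the ground, and the same limit from the choice of genes holds. Log2 fold changes of Abcc1 ran from -0.13 to 0.18 on the ground over 9 tissues, and those of Abcc10 from -0.07 to 0.23. Those of Abcc5 ran from -0.16 to 0.43 over 9 tissues, and those of Abcc6 from 0.10 to 0.68 over 4. In flight the ranges were -0.17 to 0.65 (Abcc1), -0.15 to 0.10 (Abcc5), -0.03 to 0.26 (Abcc6) and -0.10 to 0.21 (Abcc10). Abcc6 in Liv, where it is most expressed, was at 45.9 ± 7.48 TPM in GC_KO and 42.6 ± 4.33 TPM in GC_WT mice (SD, n = 6 each), with a log2 fold change of 0.10 and a 95% interval of -0.05 to 0.25.

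**Figure D2:**
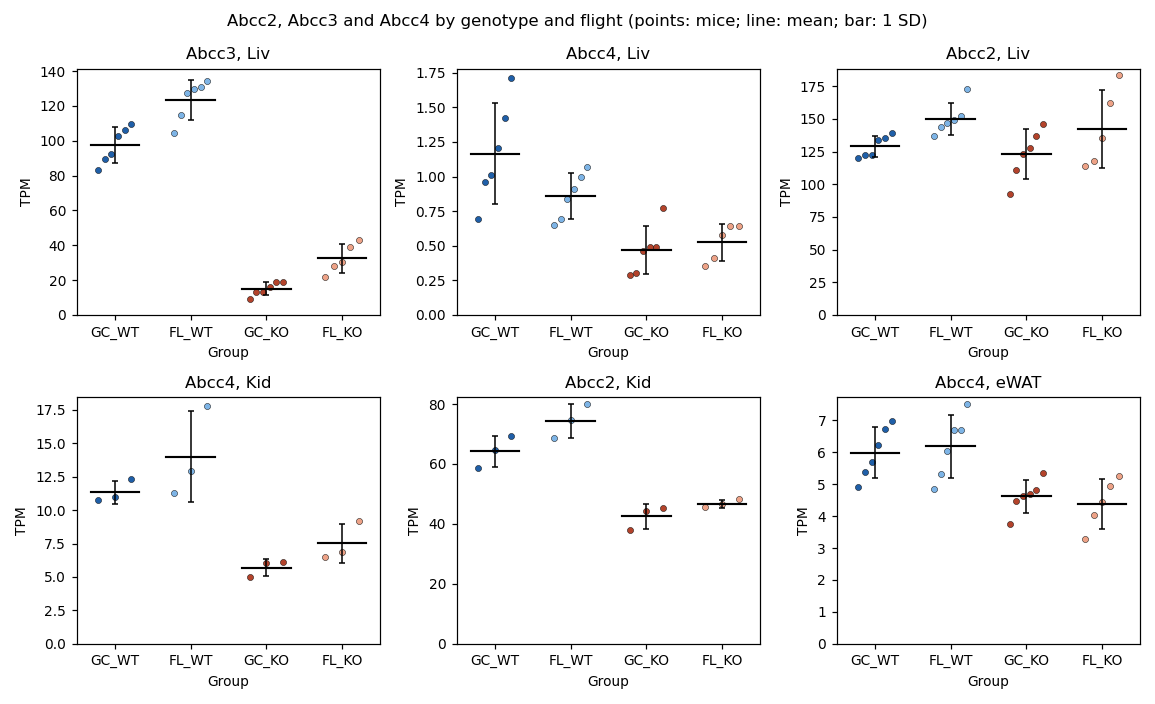
TPM of Abcc2, Abcc3 and Abcc4 by group in Liv, Kid and eWAT on linear axes from 0. Points are mice, lines are means and bars are 1 SD; the Abcc3 livers of both Nrf2KO groups, at 9.27 to 43 TPM, lie below all WT livers, and Abcc2 overlaps between genotypes in Liv but not in Kid.

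**Figure D3:**
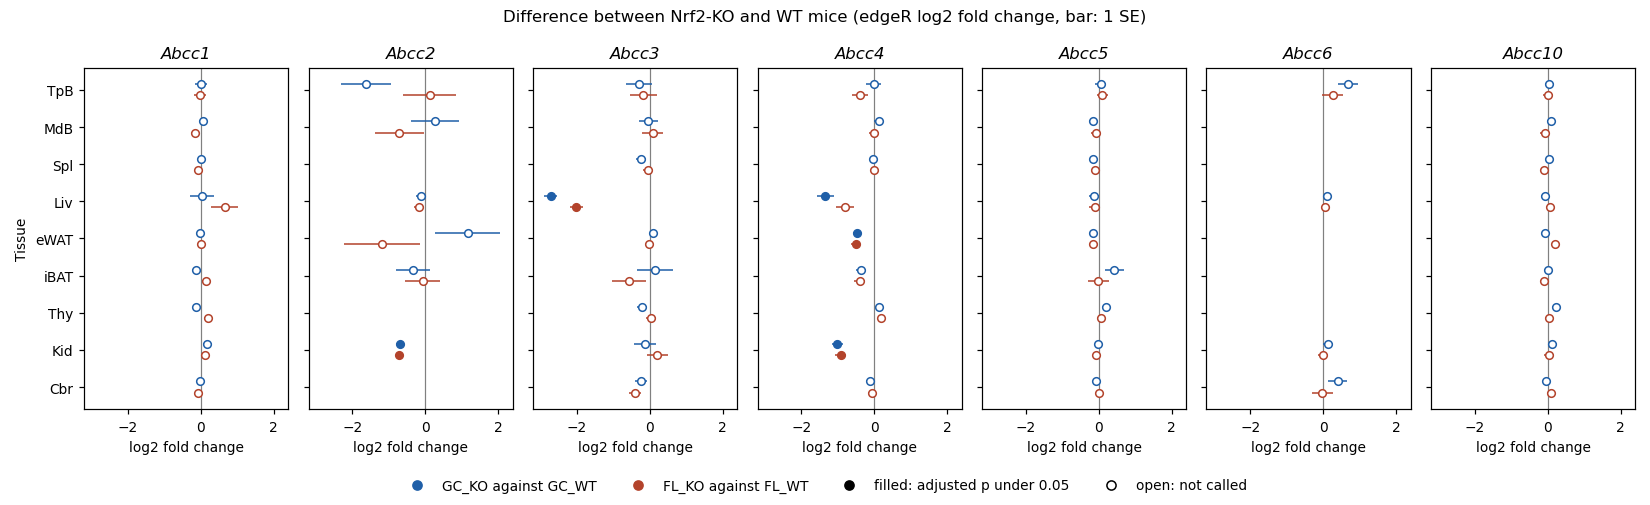
Log2 fold change between Nrf2KO and WT mice for each gene (panels) and tissue (rows), on the ground and in flight, with bars of 1 SE. Filled points mark the 5 pairs called on the ground and the 4 called in flight, all below 0.

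Promoter windows are printed for Abcc2 and Abcc4, which were lower in Nrf2KO mice, and for Abcc10, which was not called between genotypes, so that the letters of both kinds can be read. RefSeq (build GRCm38.p6) held windows of 300 bases, from 250 bases before to 50 bases after the start, for 4 of the 7 genes, namely Abcc2, Abcc4, Abcc5 and Abcc10. They were searched on both strands for TGACNNNGC, the core of the antioxidant response element, and for TGAGNNNGC. Matches stand in capitals, and the windows read 5′ to 3′ on the strand of the gene.
Abcc2 (chr19:43782058-43782357, plus strand): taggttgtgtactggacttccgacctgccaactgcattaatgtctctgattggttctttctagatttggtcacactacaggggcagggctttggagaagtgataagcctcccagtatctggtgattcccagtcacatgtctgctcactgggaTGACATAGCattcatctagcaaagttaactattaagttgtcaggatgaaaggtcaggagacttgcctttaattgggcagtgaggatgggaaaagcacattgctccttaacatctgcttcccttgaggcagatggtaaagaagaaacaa
Abcc4 (chr14:118706170-118706469, minus strand): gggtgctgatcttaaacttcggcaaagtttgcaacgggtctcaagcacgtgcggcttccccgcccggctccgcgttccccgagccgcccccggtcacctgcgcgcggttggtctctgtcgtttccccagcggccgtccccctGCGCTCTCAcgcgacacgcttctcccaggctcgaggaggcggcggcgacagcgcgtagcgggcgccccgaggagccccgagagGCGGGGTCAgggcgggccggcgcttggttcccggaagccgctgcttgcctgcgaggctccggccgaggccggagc
Abcc10 (chr17:46327974-46328273, minus strand): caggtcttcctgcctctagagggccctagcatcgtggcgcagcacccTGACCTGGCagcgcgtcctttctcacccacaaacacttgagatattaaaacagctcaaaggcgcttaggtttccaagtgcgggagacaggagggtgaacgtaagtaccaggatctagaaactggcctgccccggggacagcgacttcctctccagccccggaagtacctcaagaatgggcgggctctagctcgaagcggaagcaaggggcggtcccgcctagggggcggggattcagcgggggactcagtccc
In the Abcc2 window TGACATAGC spans bases -98 to -90 from the start. In the Abcc4 window TGACCCCGC spans bases -25 to -17 and TGAGAGCGC bases -108 to -100, both read on the opposite strand, so their capitals show the reverse complement. A second annotated start of Abcc4 had TGACTCTGC at bases -23 to -15. Abcc10 had TGACCTGGC at bases -203 to -195 and, at a second annotated start, TGACATGGC at bases 12 to 20 after the start. The window of Abcc5 held neither motif. Over all 32851 windows, 12.4% held TGACNNNGC, 17.6% held TGAGNNNGC and 27.8% held at least 1 of them. Of the 4 genes with windows, Abcc2, Abcc4 and Abcc10 held TGACNNNGC and Abcc5 did not. These genes are too few to set against the shares over all windows. Whether Nrf2 binds at any match was not tested.

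On GRCm38 with GENCODE annotation, the genes lie at chr16:14361558-14475737 (Abcc1), chr19:43782192-43840740 (Abcc2), chr11:94343295-94392997 (Abcc3), chr14:118482692-118706219 (Abcc4), chr16:20331303-20426394 (Abcc5), chr7:45967555-46030302 (Abcc6) and chr17:46303221-46328352 (Abcc10). Abcc1 and Abcc2 are on the plus strand and the others on the minus strand. The promoter windows were placed on RefSeq starts, which can differ from these. The printed Abcc10 window lies wholly inside the gene as given here. In the Abcc2 window the match lies after the gene start given here. The reads were counted over all exons of a gene, so no value here belongs to a single exon or UTR.

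The next question was what flight changed. In WT mice the edgeR calls were in Thy and eWAT. Abcc1 and Abcc3 rose and Abcc5 fell in Thy, and in eWAT Abcc1 fell and Abcc3 rose. The count was 5 of 55 pairs called, 3 higher and 2 lower (9.09%), against 6.55% of all tests in this comparison, which is near the background. On the log2(TPM + 1) scale with limma 8 pairs were called instead, 7 higher and 1 lower. limma kept only genes whose mean reached 5 TPM in a group, so fewer pairs than 55 were tested. The edgeR shares of all tests do not apply to its count. The limma calls included Abcc1 (0.26, adjusted p = 0.0448) and Abcc4 (0.31, adjusted p = 0.02) in iBAT, Abcc4 in Thy (0.31) and Abcc5 in eWAT (0.21). On the log2(TPM + 1) scale the median gene of iBAT was 0.31 higher in FL_WT mice. The iBAT libraries of FL_WT mice 6 and 8 held 5955 and 2856 TPM of 6 skeletal muscle markers, against 0.63 to 33.8 TPM in GC_WT libraries. The part of muscle in the iBAT calls was not tested. In Thy, 3 of 5 tested members were called against 22.8% of all genes, and in eWAT 2 of 6 against 13.4%. The median log2 fold change of the 55 pairs was 0.08 and that of all genes 0.00.

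In eWAT the GC_WT mice held 19.9 to 25.2 TPM of Abcc1 (median 23.06 TPM) and the FL_WT mice 13.5 to 19.9 TPM (median 16.44 TPM). Every FL_WT mouse was below every GC_WT mouse, although the highest of the former (19.91 TPM) and the lowest of the latter (19.95 TPM) nearly met. The fold change was -0.55 ± 0.075 on the log2 scale (SE, edgeR adjusted p = 6.97e-05). Abcc3 went the other way in the same samples. GC_WT mice held 6.98 to 11.3 TPM (median 9.425 TPM) and FL_WT mice 12.7 to 14.4 TPM (median 13.71 TPM), without overlap, and the log2 fold change was 0.42 ± 0.0846 (SE, edgeR adjusted p = 0.0018). Endothelial markers moved beside them, with 3 of 3 genes higher in FL_WT and a summed level of 447 to 594 TPM against 308 to 406 TPM in GC_WT mice, and none of the 3 at 0. Of the 6 macrophage markers, 1 rose and 1 fell, and their sums ran from 614 to 1497 TPM in FL_WT and 597 to 824 TPM in GC_WT mice. The part of other cell types in these results was not tested.

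In Thy, Abcc3 ran from 3.05 to 5.02 TPM in GC_WT (median 4.485 TPM) and from 4.97 to 10.6 TPM in FL_WT mice (median 7.51 TPM). The groups overlapped only by the lowest FL_WT mouse, and the log2 fold change was 0.54 ± 0.13 (SE, edgeR adjusted p = 0.0038). Abcc1 ran from 2.65 to 4.03 TPM in GC_WT (median 3.71 TPM) and from 4.25 to 6.59 TPM in FL_WT mice (median 5.09 TPM), without overlap. Its log2 fold change was 0.32 ± 0.0951 (SE, edgeR adjusted p = 0.0181). Abcc5, at 49.7 to 70.8 TPM in GC_WT (median 63.8 TPM) and 51 to 64.3 TPM in FL_WT mice (median 59.91 TPM), overlapped throughout. Its log2 fold change of -0.28 ± 0.0886 (SE, edgeR adjusted p = 0.0252) was relative to the TMM factors. On the TPM scale, where the median gene of Thy was 0.18 higher in FL_WT mice, it was -0.07 (limma, adjusted p = 0.558).

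Flight in Nrf2KO mice gave calls of the same genes in Thy and eWAT, and added Abcc3 in Liv, Abcc4 in Thy and Abcc10 in iBAT. The count was 8 of 55 pairs called, 5 higher and 3 lower (14.5%), against 8.91% of all tests. With limma on log2(TPM + 1) the count was 7, of which 6 were higher and 1 lower. That count also came from fewer pairs than 55, so the edgeR shares do not apply to it. In Thy 4 of 5 tested members were called against 38.2% of all genes, in eWAT 2 of 6 against 7.71%, in iBAT 1 of 6 against 33.5% and in Liv 1 of 7 against 3.34%. The median log2 fold change was 0.03 over the 55 pairs and 0.01 over all genes. FL_KO and GC_KO mice are other animals than FL_WT and GC_WT mice, so both flight comparisons rest on separate samples.

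Thymus of GC_KO mice held 2.22 to 3.78 TPM of Abcc1 (median 2.91 TPM) and FL_KO thymus 4.87, 5.32, 5.64, 5.71 and 5.92 TPM. The groups did not overlap, and the log2 fold change was 0.63 ± 0.101 (SE, edgeR adjusted p = 3.29e-05). Abcc3 was at 2.41 to 4.53 TPM in GC_KO (median 3.67 TPM) and at 5.54, 7.19, 7.22, 7.68 and 8.44 TPM in FL_KO mice, also without overlap. Its log2 fold change was 0.79 ± 0.14 (SE, edgeR adjusted p = 9.94e-05). Abcc4 rose by 0.20 on the log2 scale. Abcc5 was at 56.5 to 68.1 TPM in GC_KO (median 66.22 TPM) and at 51.5, 52.3, 56, 63.4 and 75.8 TPM in FL_KO mice, which overlapped. Its log2 fold change was -0.41 ± 0.0934 (SE, edgeR adjusted p = 0.00115) with TMM factors and -0.13 (limma, adjusted p = 0.297) on the TPM scale, where the median gene was 0.16 higher in FL_KO mice.

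Markers of the cell types of the thymus moved in the same samples. T cell markers fell, 3 of 5 in FL_WT and 5 of 5 in FL_KO mice, with sums of 1324 ± 86.4 TPM in FL_WT against 1458 ± 86.1 TPM in GC_WT (SD, n = 6 each), and of 1069 to 1215 TPM in FL_KO against 1088 to 1604 TPM in GC_KO mice. Of 6 macrophage markers 1 was called higher in FL_WT mice, with sums of 128 to 232 TPM against 97.7 to 142 TPM. In FL_KO mice 5 of 6 were called higher, with sums of 141 to 185 TPM against 76.8 to 104 TPM. Of 4 B cell markers 1 was called higher in FL_WT mice, with sums of 19.7 to 22.5 TPM against 14.9 to 18.5 TPM. In FL_KO mice 3 of 4 were called higher, with sums of 17.6 to 26.9 TPM against 11.9 to 20.8 TPM. Of all Thy genes 22.8% were called with flight in WT and 38.2% in Nrf2KO mice, so 1 call in a list is near the background. No marker of these 3 lists was at 0 in every sample of a group. Their part in the changes of Abcc1, Abcc3, Abcc4 and Abcc5 was not tested.

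In eWAT of Nrf2KO mice Abcc1 again fell. GC_KO mice held 21.6 to 25.9 TPM (median 24.66 TPM) and FL_KO mice 14.6, 15.2, 17.6, 18.2 and 19.5 TPM, without overlap, at a log2 fold change of -0.52 ± 0.0791 (SE, edgeR adjusted p = 0.000513). Abcc3 rose by 0.30 on the log2 scale, from 8.75 to 12.5 TPM in GC_KO (median 10.96 TPM) to 12.2, 13, 13.4, 14 and 14.2 TPM in FL_KO mice, with the lowest FL_KO mouse inside the GC_KO range. This call was lost without FL_KO replicate 1 (adjusted p = 0.0701), 2 (adjusted p = 0.0659), 11 (adjusted p = 0.0749) or 12 (adjusted p = 0.0702). It was also lost in edgeR without the filter on low counts (adjusted p = 0.058) or with the compared groups alone (adjusted p = 0.0589). With limma on log2(TPM + 1) the adjusted p was 0.0535. The Abcc4 call in Thy was lost without FL_KO replicate 1 (adjusted p = 0.0527) or 12 (adjusted p = 0.0674), and without the filter on low counts (edgeR adjusted p = 0.0864).

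Abcc1 thus moved in opposite directions in Thy and eWAT in both genotypes. The flight effect in Thy minus that in eWAT was 0.86 ± 0.123 in WT (SE, adjusted p = 6.35e-06) and 1.14 ± 0.13 in Nrf2KO mice (SE, adjusted p = 2.43e-07), from fits of both tissues added after the values had been seen. Of all genes, 12.1% in WT and 20% in Nrf2KO mice were called in this test. Abcc5 gave -0.45 in WT (adjusted p = 0.00864) and -0.60 in Nrf2KO mice (adjusted p = 0.000504). In eWAT Abcc5 itself was not called by edgeR, with log2 fold changes of 0.16 in WT and 0.17 in Nrf2KO mice.

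**Figure D4:**
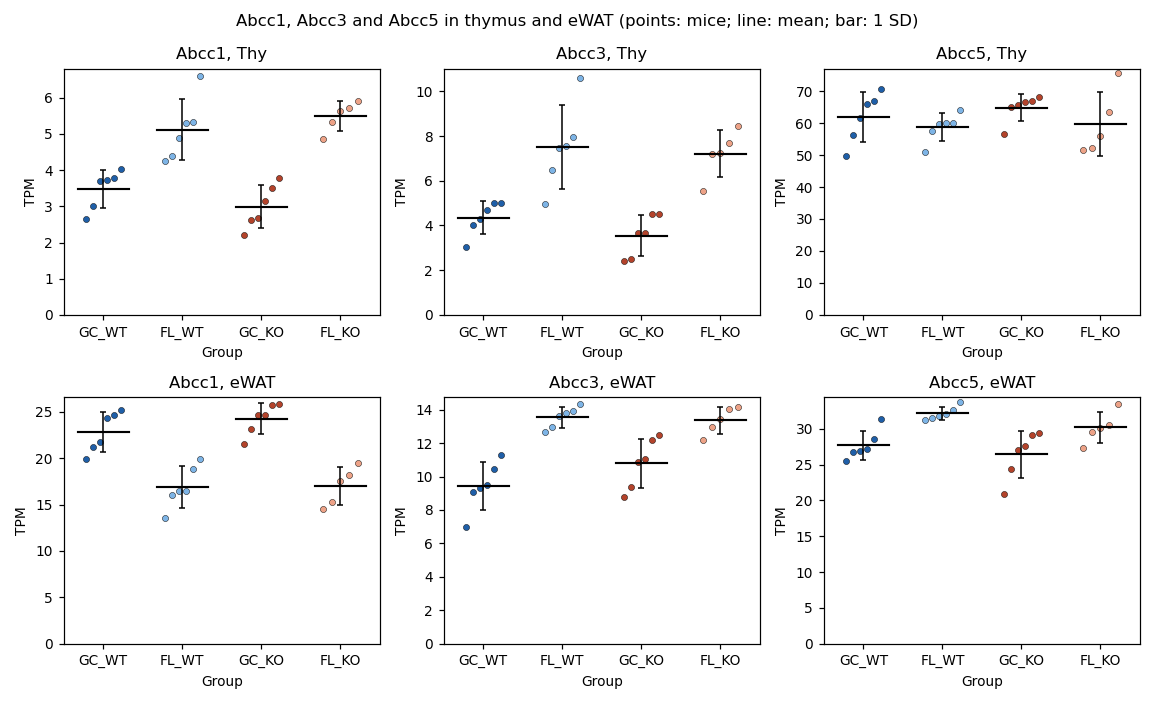
TPM of Abcc1, Abcc3 and Abcc5 in Thy (upper row) and eWAT (lower row) by group, on linear axes from 0. Points are mice, lines are means and bars are 1 SD; Abcc1 is higher in flown than ground mice in Thy and lower in eWAT in both genotypes, without overlap, and Abcc5 overlaps in Thy.

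In Liv of Nrf2KO mice Abcc3 rose with flight, from a GC_KO mean of 14.9 ± 3.77 TPM (SD, n = 6) to an FL_KO mean of 32.4 ± 8.49 TPM (SD, n = 5), the values given above, which did not overlap. The log2 fold change was 0.99 ± 0.182 (SE, edgeR adjusted p = 0.00284). In WT mice the means were 97.3 ± 10.4 and 123 ± 11.6 TPM (SD, n = 6 each), and the log2 fold change of 0.27 was not called (edgeR adjusted p = 0.462). The difference between both flight effects was 0.72, with a 95% interval of 0.22 to 1.21, an unadjusted p of 0.00911 in edgeR and an adjusted p of 1, so it was not called. None of 4 hepatocyte markers was called between FL_KO and GC_KO livers, where their sums ran from 67162 to 85261 TPM and 59554 to 73961 TPM. Of 6 macrophage markers 1 was lower in FL_KO livers, with sums of 40 to 74.9 TPM against 42.3 to 85.9 TPM. Of 4 erythroid markers tested 1 was lower, and the sums of all 6 on that list ran from 320 to 792 TPM in FL_KO and from 541 to 1158 TPM in GC_KO livers. The part of other cell types in this result was not tested.

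Abcc10 in iBAT was called lower in FL_KO mice, with a log2 fold change of -0.33 ± 0.11 (SE, edgeR adjusted p = 0.0234). In TPM, FL_KO mice held 5.02, 5.51, 5.63, 6.04 and 7.2 TPM and GC_KO mice 4.8 to 5.96 TPM with a median of 5.525 TPM. The FL_KO mean in TPM was the higher of the 2, and the log2 fold change on the TPM scale was 0.07 (limma, adjusted p = 0.496). On that scale the median gene of iBAT was 0.43 higher in FL_KO mice. The direction of Abcc10 in iBAT therefore depends on the scaling. The iBAT library of FL_KO replicate 11 also held 7425 TPM of 6 skeletal muscle markers, against 1.52 to 59.6 TPM in the other FL_KO and 0.81 to 61.4 TPM in the GC_KO libraries. Without it the call was lost (log2 fold change -0.29, edgeR adjusted p = 0.0635), as it was without FL_KO replicate 2 (adjusted p = 0.0606) or 12 (adjusted p = 0.0698). Dlk2 was at no more than 0.07 TPM in iBAT. Abcc1 in iBAT held 3.34 to 4.03 TPM in GC_KO (median 3.8 TPM) and 4.49, 5.55, 6.46, 6.73 and 7.06 TPM in FL_KO mice, without overlap. With TMM factors its log2 fold change of 0.26 was not called (edgeR adjusted p = 0.0608), whereas on the log2(TPM + 1) scale it was 0.56 (limma, adjusted p = 0.00018), and Abcc4 there was 0.37 (limma, adjusted p = 0.00674).

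**Figure D5:**
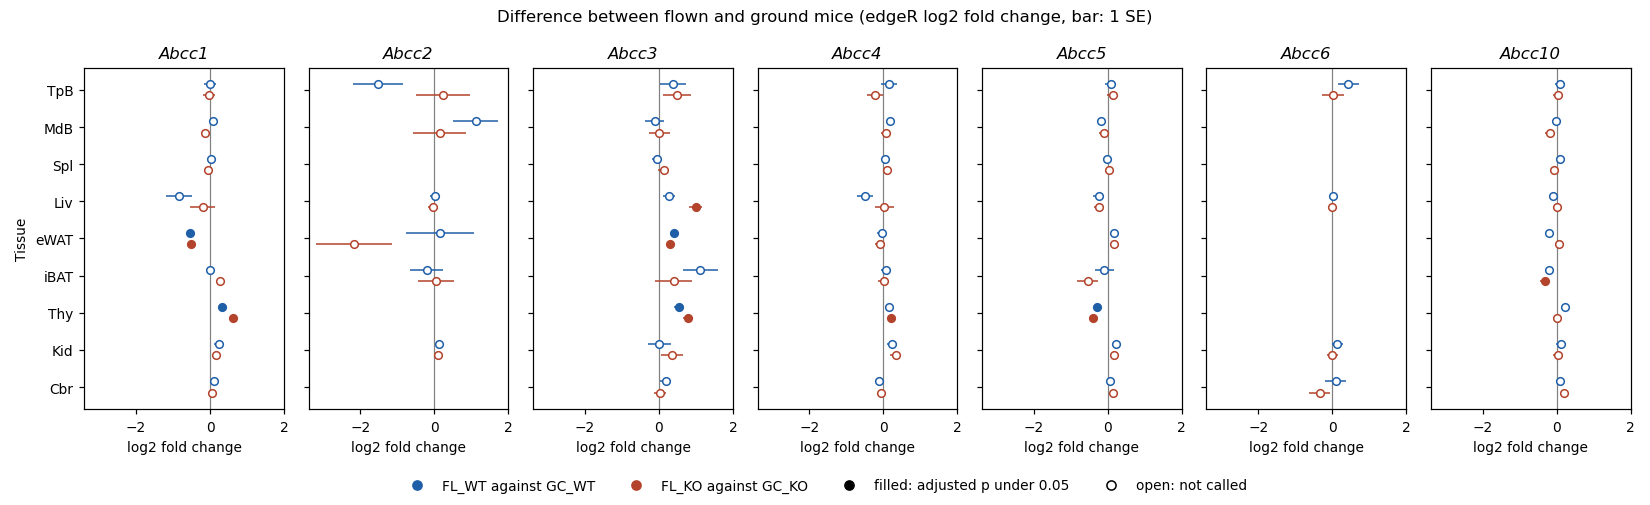
Log2 fold change between flown and ground mice for each gene (panels) and tissue (rows), in WT and Nrf2KO mice, with bars of 1 SE. Filled points mark the 5 pairs called in WT and the 8 called in Nrf2KO mice; most lie in Thy and eWAT, where Abcc1 points in opposite directions.

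No member was called in flight in TpB, MdB, Spl, Kid or Cbr of either genotype. In Kid all 7 genes had log2 fold changes of 0 or above in both genotypes, with medians of 0.14 in WT and 0.16 in Nrf2KO mice, and no call. Whether the flight effect differed between genotypes was tested as an interaction. edgeR called 0 of 55 pairs, and DESeq2 and limma also called 0. At an unadjusted p under 0.05 there were 3 pairs, Abcc3 in Liv (0.72), Abcc1 in Thy (0.31) and Abcc10 in eWAT (0.27). Of all 140842 tests 0% were called by edgeR, with 6987 at an unadjusted p under 0.05, whereas DESeq2 called 146 over the 9 tissues and limma 6.

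Other genes of drug and glutathione handling were read from fixed lists, which were also chosen with earlier results of these data known. The 9 genes of glutathione metabolism and classical Nrf2 response had 27 of 77 pairs lower and 0 higher in GC_KO than in GC_WT mice. In flight 27 were again lower and 0 higher (35.1% each). Of all tests, 1.65% were called between genotypes on the ground and 1.35% in flight. Gsta3, a glutathione transferase, fell by 3.03 on the log2 scale in Kid on the ground and Gstm1 fell by 2.27 in Liv. Nqo1, a quinone reductase, fell by 1.79 in Kid. With flight these genes went both ways, with 5 pairs higher and 7 lower in each genotype (15.6%). The share of all tests called with flight was 6.55% in WT and 8.91% in Nrf2KO mice.

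The other Abcc genes, Abcc8, Abcc9, Abcc12 and Cftr, had 1 pair higher and 1 lower of 20 between genotypes on the ground. That was 10%, against 1.65% of all tests. In flight 1 was higher and 2 lower (15% against 1.35%). Abcc9, a subunit of potassium channels, was lower in Kid of GC_KO mice (log2 fold change -0.70). With flight 2 of 20 were higher in WT (10% against 6.55%), and 3 were higher and 1 lower in Nrf2KO mice (20% against 8.91%). Abcc9 in Thy had log2 fold changes of 0.62 and 0.83.

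Of 11 efflux genes of other families, 1 pair of 51 was lower between genotypes on the ground (Abcb1b in iBAT, -0.43) and 1 in flight (Abcg2 in Liv, -0.76). Each was 1.96% of the pairs, near the 1.65% and 1.35% of all tests. With flight 5 were higher and 1 lower in WT (11.8% against 6.55%), and 5 higher and 2 lower in Nrf2KO mice (13.7% against 8.91%). The calls in Thy were Slc47a1 (0.88), Abcb1b (0.70) and Abcb4 (0.45) in WT and Abcb1a (0.81), Slc47a1 (0.71) and Abcb1b (0.42) in Nrf2KO mice. Abcb1a and Abcb1b code for P-glycoproteins, Slc47a1 for a proton-coupled exporter of organic cations and Abcb4 for a phospholipid exporter. Of 9 uptake carriers of organic anions, 1 pair of 36 was lower between genotypes on the ground (2.78% against 1.65%) and 3 in flight (8.33% against 1.35%). One of them was Slc22a6, the basolateral anion carrier of the proximal tubule, in Kid, with log2 fold changes of -0.51 and -0.49. With flight 2 were higher in WT, and 1 was higher and 1 lower in Nrf2KO mice. These shares, 5.56% each, were not above the 6.55% and 8.91% of all tests.

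Among 6 regulators the genotype calls were 10 of 32 pairs lower and 0 higher in both conditions. That was 31.2%, against 1.65% of all tests on the ground and 1.35% in flight. Of the 10 pairs, 9 were Nfe2l2 itself. The other was Nr1i3, the constitutive androstane receptor, a nuclear receptor of drug-metabolism and transporter genes, in Liv. Its mean was 168 ± 27.8 TPM in GC_WT and 46.1 ± 11.1 TPM in GC_KO mice (SD, n = 6 each), and the fold change was -1.96 ± 0.194 on the log2 scale (SE, edgeR adjusted p = 2.79e-07). FL_WT mice had 215 ± 29.7 TPM (SD, n = 6) and FL_KO mice 84.6 ± 18.3 TPM (SD, n = 5), with a difference of -1.48 on that scale. From GC_KO to FL_KO Nr1i3 in Liv rose by 0.79 on the log2 scale (edgeR adjusted p = 0.0265). With flight 1 regulator pair was lower in WT (3.12% against 6.55%), and 4 were higher in Nrf2KO mice (12.5% against 8.91%).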

How the data were processed

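RNA-seq tables of 192 mouse samples were used, and the 7 genes and all gene lists were chosen with earlier results of these data known. Per the labels, RNA was poly(A)-selected or, in Thy, depleted of rRNA. Reads were mapped to mm10 with STAR 2.6.1 and quantified with RSEM 1.3.1, as the submitters' processing notes and the paper's methods state. The deposited expected counts are RSEM estimates per gene with no normalization, in which reads that match several genes are split. TPM in the deposited table is also RSEM's, scaled to transcript length and to the total of each sample. The 192 columns of FPKM were not used.

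Expected counts were rounded and fitted per tissue with edgeR 4.0.16 in R 4.3.3 (filterByExpr, TMM factors, quasi-likelihood test, all 4 groups in 1 fit), and adjusted p-values cover 13433 to 18184 genes per tissue. The SE of an edgeR log2 fold change was its size divided by the square root of the F statistic of the test. The 95% intervals used this SE with a normal multiplier, so they can be narrower than the test itself implies. Scripts were tested on simulated data. The same comparisons were run with DESeq2 1.42.0, with RLE factors, unfiltered, with flight mouse 04 put back, with the compared groups alone, with single mice left out, and with a block for mouse number or, in TpB, for library set. limma 3.58.1 was run on log2(TPM + 1), keeping genes whose mean reached 5 TPM in any group. The fits of tissue pairs were added later. Coordinates came from GENCODE vM21, which held 98.4% of the gene identifiers.

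All called pairs are named. Values per mouse, SE and adjusted p are given for up to 4 pairs per comparison with the smallest adjusted p and for pairs against the direction of most calls. Those of Abcc3 in Liv between FL_KO and GC_KO and of lost calls were added after their values were seen. Up to 4 genes were named per list and comparison, by adjusted p. Numbers recur in flown and ground mice but mark separate animals. Samples with 1 number deviated together by the set limit of 0.1 in Liv of Nrf2KO mice (all 5 pairs, r = 0.22 to 0.37), where the block changed no call of a member, and in no other tissue and genotype with at least 3 pairs. Each mouse gave 1 sample per tissue, so p-values of the fits per tissue measure the spread between mice. The fits of tissue pairs took samples of the same mouse as independent, so this does not hold for them.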

Additional observations from a re-analysis of the deposited data

Results flagged for a closer look

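Among 134 groups of 4 to 6 mice with a mean of at least 1 TPM, 4 held a single mouse far from the rest, and chance gives about 1 in 20 groups. Abcc1 in Cbr was 8.3 TPM in GC_WT mouse 3, against 5.8 to 6.65 TPM in the other GC_WT mice. Abcc5 in Cbr was 74.8 TPM in FL_KO mouse 1, against 88 to 93.2 TPM. Abcc5 in Liv was 3.71 TPM in GC_WT mouse 8, against 1.42 to 2 TPM. Abcc5 in Thy was 56.5 TPM in GC_KO mouse 1, against 65.2 to 68.1 TPM.

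Effects that differed between tissues, each by a test of the difference itself, were those of Abcc3 between genotypes and of several members with flight. These tests were added after the values had been seen and took samples of the same mouse as independent. The genotype difference of Abcc3 in Liv was beyond that in Kid by -2.58 on the ground and -2.21 in flight, and beyond that in eWAT by -2.81 and -1.96 (log2 scale). The flight effect in Thy minus that in eWAT was 0.86 in WT and 1.14 in Nrf2KO mice for Abcc1, and -0.45 and -0.60 for Abcc5. For Abcc10 it was 0.41 in WT mice (adjusted p = 0.0254) and not called in Nrf2KO mice (-0.08). For Abcc3 it was 0.47 in Nrf2KO mice (adjusted p = 0.0433) and not called in WT mice (0.11).

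In the samples of flight mouse 04, which entered no comparison, Abcc2 in Liv was 208 TPM, above the range of 92.3 to 184 TPM over all other mice.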

How the results depend on the processing

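Over the 22 calls of members in the 4 comparisons, DESeq2 and RLE factors kept all 22, leaving out the filter on low counts kept 19, fitting the compared groups alone kept 20, and including flight mouse 04 kept 16 of the 18 it could be run on. With limma on log2(TPM + 1), 15 of 21 calls held and 5 were lost. There Abcc10 in iBAT between FL_KO and GC_KO turned from -0.33 to 0.07. The count of pairs called rose from 5 to 8 for flight in WT mice (7 higher, 1 lower). It went from 5 to 3 for genotype on the ground, where the call of Abcc4 in eWAT was lost. Abcc4 in Liv, below a mean of 5 TPM in every group, was not tested by limma.

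Without single mice the count ran from 5 to 9 for flight in Nrf2KO mice, with 5 without FL_KO replicate 12, and from 3 to 4 for genotype in flight. The mice left out were those of FL_KO in all tissues and single mice of MdB and Kid, so the calls of flight in WT mice and of genotype on the ground in Liv and eWAT were not put to this check. The interaction had 0 calls throughout these runs. Abcc1 in iBAT was called in Nrf2KO mice without FL_KO replicate 9 (0.35, adjusted p = 0.00885), as it was with limma on log2(TPM + 1) (0.56).

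With the replicate block, which pairs flown and ground mice by number, flight in WT mice kept 5 calls and flight in Nrf2KO mice had 6 of 8. The lost calls were Abcc3 in eWAT (0.28, adjusted p = 0.0557) and Abcc4 in Thy (0.21, adjusted p = 0.0521), in tissues where the numbers did not pair the samples. The block could not be fitted in MdB and Kid, and genotypes share no mouse numbers.

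Levels between tissues as a percent of the highest tissue moved beyond 1 SD for 48 of 63 values on the CPM scale with TMM factors, and for 20 of 63 on TPM without mitochondrial, ribosomal protein and small RNA genes. Abcc2 and Abcc6 had too few reads to be tested in 8 pairs, and MdB and Kid had 3 mice per group, with 2 of FL_KO in MdB.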
